A study of Arabidopsis thaliana with 13 samples.

Results

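The genes described here are the nuclear genes of the photosynthetic machinery, 52 loci of Arabidopsis thaliana. They were chosen by name and not by a cut on measured values, though with earlier results of these data known. They encode the light-harvesting antenna proteins of photosystem I (LHCA, 6 loci) and of photosystem II (9 loci of the LHCII trimer and 5 of the minor antenna), the small subunit of Rubisco (RBCS, 4 loci), nuclear subunits of photosystem I (12) and photosystem II (10), 4 electron carriers and 2 subunits of the chloroplast ATP synthase. All 52 were among the 37184 genes counted in dry seeds and the 37336 genes counted in single seeds. The seeds were wild-type Col-0, dry-stored for at least 6 months and sorted by size. Dry seeds gave 12 libraries, 4 each of small, medium and large seeds from 4 seed pools. Single seeds gave 384 transcriptomes in 12 libraries of 32 seeds, 3 libraries for each size at each of 2 stages, during and after secondary dormancy induction. In this treatment a fraction of the imbibed seeds becomes dormant again. Seeds of the 7d24h groups (small_7d24h and large_7d24h) had 7 days on water in darkness at 30 °C followed by 24 h of recovery in the light, and seeds of the 3d groups (small_3d and large_3d) had 3 days in darkness at 30 °C. Length of induction, recovery, light and temperature therefore changed together between these stages and cannot be told apart. Whole seeds were used, so the values mix embryo and endosperm, and fewer cells of a type cannot be told apart from less RNA per cell.

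Light-harvesting proteins bind chlorophyll and pass absorbed energy to the photosystems, which move electrons from water through cytochrome b6f and plastocyanin to ferredoxin. The ATP synthase and Rubisco then use the products of this electron flow to fix carbon. In Arabidopsis these nuclear genes are known for their strong expression in green tissue, for transcription in the green embryo that ends before the seed dries, and for their induction by light in the seedling. The CACGTG sequence (G-box) and the GATAAG sequence (I-box core) are classical elements of the promoters of several of them.

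The promoters given first are those of the 4 genes with a G-box or an I-box core among the 16 called between the stages below. The other genes called there, RBCS1A, ATPC1, PSBS, PSBX and RBCS3B among them, held neither in the 250 bases searched. Each promoter is the 250 bases before the annotated gene start in the RefSeq annotation of TAIR10.1, 5′ to 3′. G-boxes and I-box cores are in capitals, searched on both strands. ATPD was higher at 7d24h than at 3d, and the other three were lower.
ATPD (AT4G09650, chr4:6100464-6100713, + strand): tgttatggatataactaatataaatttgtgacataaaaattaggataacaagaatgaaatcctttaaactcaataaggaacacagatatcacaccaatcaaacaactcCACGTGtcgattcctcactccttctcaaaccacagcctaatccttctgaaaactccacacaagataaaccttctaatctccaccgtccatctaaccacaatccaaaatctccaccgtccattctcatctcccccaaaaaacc
LHCB4.1 (AT5G01530, chr5:208616-208865, + strand): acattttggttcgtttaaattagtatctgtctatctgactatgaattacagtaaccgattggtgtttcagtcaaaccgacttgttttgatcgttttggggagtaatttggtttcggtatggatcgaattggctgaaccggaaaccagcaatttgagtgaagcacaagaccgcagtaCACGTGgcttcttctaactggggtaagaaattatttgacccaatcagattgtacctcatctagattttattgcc
LHCB4.2 (AT3G08940, chr3:2717307-2717556, + strand): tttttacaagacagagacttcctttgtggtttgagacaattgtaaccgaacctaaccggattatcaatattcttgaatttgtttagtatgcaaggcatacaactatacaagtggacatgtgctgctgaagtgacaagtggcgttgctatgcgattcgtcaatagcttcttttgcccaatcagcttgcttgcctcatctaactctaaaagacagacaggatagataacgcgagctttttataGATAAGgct
PETC (AT4G03280, chr4:1439896-1440145, + strand): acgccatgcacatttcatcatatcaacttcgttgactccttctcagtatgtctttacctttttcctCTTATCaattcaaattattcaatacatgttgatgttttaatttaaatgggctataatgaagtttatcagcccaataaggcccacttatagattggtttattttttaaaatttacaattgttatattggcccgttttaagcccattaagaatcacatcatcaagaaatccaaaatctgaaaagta

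The first base of the G-box stood at -142 in ATPD and at -74 in LHCB4.1, counted back from the gene start, and the I-box core began at -9 in LHCB4.2 and at -184 in PETC. Over all 52 promoters of this length, 10 (19.2%) held a G-box, against 6.49% of 27443 protein-coding genes. An I-box core was in 12 (23.1%), against 12.3% of all genes. The shorter sequence ACGT, which is also the centre of the G-box, was in 27 (51.9%), against 44.1%. Of the 9 genes called higher at 7d24h below, 1 held a G-box and none an I-box core. Of the 7 called lower, 1 held a G-box and 2 an I-box core. A match describes the letters in this window and is not evidence of a factor at the site.

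The depth was 554305 to 2079317 gene counts in a dry seed library and 2326352 to 5851052 in a library of single seeds. Libraries of 3d were shallower, with 2326352 to 3209763 gene counts against 3987045 to 5851052 at 7d24h. Raw counts are therefore not comparable between these stages. At these depths most of the genes were near the limit of detection. Levels are given as CPM, the counts of a gene per 1000000 gene counts of the library after scaling by TMM factors, separately in each experiment, and because only 3′ ends were sequenced they do not scale with transcript length. In dry seeds the mean of the highest size was under 5 CPM for 39 of the 52 genes and at least 10 CPM for 10, and 5 had no count at all (LHCA6, LHCB2.2, RBCS1B, PSAH-2 and PETE1). In single seeds the mean of the highest group was under 5 CPM for 29, at least 10 CPM for 18 and at least 100 CPM for 3 (RBCS1A, LHCB4.1 and LHCB4.2). LHCA1, LHCA2, LHCA3, LHCB2 and LHCB3, which make up much of the leaf antenna, never reached a mean of 3 CPM in any group. The counts were split among near-identical copies only in part. Of the 55-base words in the last 400 bases of each transcript, all occurred at a single genome position for 45 genes, while the share was 71.7% for LHCB2.2 (AT2G05070), 83.5% for LHCB1.3 (AT1G29930), 87.6% for RBCS2B (AT5G38420), 91% for LHCB1.2 (AT1G29910), 94.5% for RBCS3B (AT5G38410), 94.8% for LHCA2 (AT3G61470) and 96% for LHCB1.5 (AT2G34420). Values of these copies are uncertain to that degree. A gene on the same strand overlaps PSAD-2 and PSBP-1, and 16 of the 52 have one on the other strand.

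The first comparison asked whether photosynthesis transcripts stored in dry seeds differed with seed size. PETC, LHCB4.2 and PSBR had higher TMM-scaled levels in small than in large seeds, relative to other transcripts and not as amounts per seed. PETC (AT4G03280, chr4:1440146-1441863, + strand) encodes the Rieske iron-sulphur protein of the cytochrome b6f complex. It stood at 23.8, 26.1, 37.3 and 27.1 CPM in small seeds, while medium seeds had 19.6, 14.1, 16.4 and 9.09 CPM and large seeds 6.63, 7.78, 7.13 and 13.2 CPM, in the order of the pools. Every small library was above every medium and large one. The mean of medium seeds lay between, and medium seeds were above large seeds in 3 of 4 pools. The log2 fold change was 1.83 ± 0.29 (SE) for small over large seeds (edgeR, adjusted p = 7.6e-06) and 1.04 ± 0.27 for small over medium seeds (adjusted p = 0.0207), higher in small seeds in 4 of 4 pools for both.

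LHCB4.2 (AT3G08940, chr3:2717557-2718923, + strand) encodes an isoform of CP29, a minor antenna protein that links the LHCII trimers to the photosystem II core. Small seeds had 26.8, 28.1, 14.4 and 27.1 CPM of it, against 11.04, 9.01, 9.67 and 12.2 CPM in the large ones. The groups did not overlap, although the library of pool 3 in small seeds stood well below the others. The log2 fold change of small over large seeds was 1.13 ± 0.30 (SE, adjusted p = 0.00677). PSBR (AT1G79040, chr1:29735952-29737009, + strand), a photosystem II subunit needed for stable binding of the oxygen-evolving proteins, had 29.7, 32.1, 25.3 and 20.3 CPM in small seeds, against 19.9, 13.5, 10.7 and 14.2 CPM for the large seeds. PSBR changed by 0.93 ± 0.26 (SE, adjusted p = 0.0118) on the log2 scale, but the call was lost without the large library of pool 3 (0.78, adjusted p = 0.0678).

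In all, 10 of the 52 genes passed the filter on low counts. Of these, 3 were called higher in small seeds when set against large seeds (background 8.46% of 8234 genes) and 0 lower (background 6.24%), with 6 at an unadjusted p under 0.05 in edgeR. The median log2 fold change of the 10 was 0.76, beside -0.01 over all tested genes. The filter on low counts asks for enough counts in 4 libraries, so a gene can pass through the size where it is high. The median therefore describes these 10 and is no measure of the 52. Of the 7 not called, RBCS1A (AT1G67090), PSBW (AT2G30570) and LHCA5 (AT1G45474) had log2 fold changes of 0.72, 0.86 and 0.80, and LHCB4.1 (AT5G01530), the isoform next to LHCB4.2, had -0.07. PSAD-2 (AT1G03130), whose product docks ferredoxin at photosystem I, had -0.98 (adjusted p = 0.112). Each pool supplied seeds of all sizes, and with the pool as a block RBCS1A was also called (0.84, adjusted p = 0.0249). Against medium seeds 1 gene, PETC, was called in small seeds (background 3.51%), and this call was lost without the small library of pool 3 (0.82, adjusted p = 0.235) or the medium library of pool 4 (0.88, adjusted p = 0.109). Between medium and large seeds 0 genes were called (background 0.146%), with 2 at an unadjusted p under 0.05. DESeq2 also called 0 there. The counts at an unadjusted p have no share over all genes beside them and are not read as a result.

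**Figure D1:**
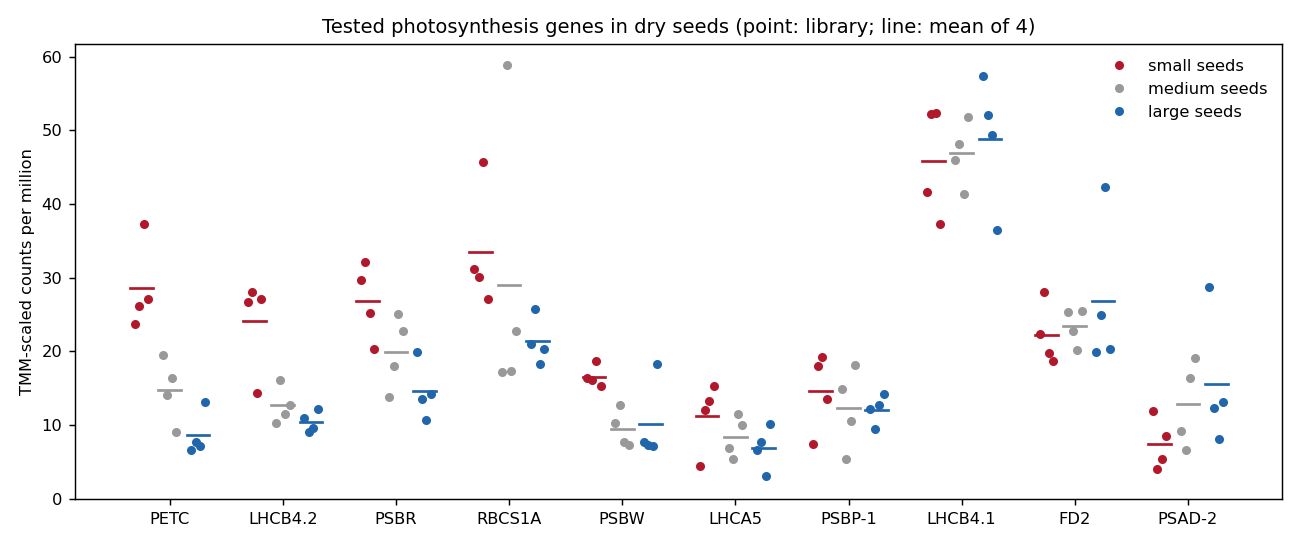
TMM-scaled CPM (y axis) of the 10 photosynthesis genes that passed the filter in dry seeds, for small, medium and large seeds, with 1 point per library and a line at the mean of 4 libraries. PETC, LHCB4.2 and PSBR, at the left, were above the large seeds in the small seeds of 4 of 4 pools, and LHCB4.1 had means of 45.9, 46.8 and 48.8 CPM from small to large.

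The choice of scaling matters for these dry seed values. TMM factors raised small libraries relative to large ones, and with library totals alone the median of all tested genes shifted by -0.38 on the log2 scale for small over large seeds. On that scale PETC was the only gene still called higher in small seeds, LHCB4.2 (0.75, adjusted p = 0.0507) and PSBR (0.54, adjusted p = 0.110) were no longer called, and FD2, LHCB4.1 and PSAD-2 were called lower. Over the members as a whole, the level of the 52 genes without TMM factors was 249 ± 28.4 CPM in small, 222 ± 18.9 in medium and 223 ± 20.5 in large seeds (SD, n = 4 each). With TMM factors it was 286 ± 34.8 CPM in small, 217 ± 14.7 in medium and 199 ± 18.2 in large seeds. Storage and maturation transcripts moved with seed size as well. The genes CRA1, CRB, CRC, OLE1 and EM6 took 10.8% to 15.0% of the counts of small libraries, against 7.66% to 8.38% in large ones. Of the 5, 4 were called higher in small than in large seeds (background 8.46%). Their part in the difference of the photosynthesis genes was not tested. Of the endosperm markers EPR1, EXPA2, MAN7, NCED6 and NCED9, 1 was tested in dry seeds and 0 were called. The 5 summed to 27960 to 45300 CPM in small and to 29070 to 30180 CPM in large libraries. Nearly all of this was EPR1, at 27940 to 45290 and at 29050 to 30170 CPM.

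The LHCII trimer genes were too low for the filter, and their sum, though not each gene, had the same order over the sizes. In small seeds they summed to 10.3 ± 1.18 CPM, whereas the sum was 4.72 ± 2.23 CPM for medium and 1.22 ± 1.04 CPM for large seeds (SD, n = 4 each). A small library held 5 to 15 of these counts and a large one 0 to 5. No small library overlapped the medium or large ones. Most of the counts in small seeds were of LHCB1.3, a copy of the most abundant antenna protein of leaves, with 8.92, 4.02, 5.41 and 3.39 CPM in small seeds, against 0, 1.23, 0.51 and 0 CPM in large seeds. The means of LHCB1.1, LHCB1.2, LHCB2.3 and LHCB3 were not highest in small seeds, and LHCB2.2 had no count in dry seeds. LHCB1.5 had 7 counts in the 4 small libraries and none in medium or large ones. The lower limit of the ratio of small over large seeds was 2.65 (95% exact binomial interval, counting error only). LHCB1.5 was singled out for its counts, and the interval does not allow for that choice. Without the filter on low counts, edgeR called 7 of the 52 genes higher in small over large seeds (background 2.73% of 22778 genes) and 0 lower (background 2.05%), namely PETC, LHCB4.2, PSBR, RBCS1A, LHCB1.3, LHCB1.5 and LHCB4.3.

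**Figure D2:**
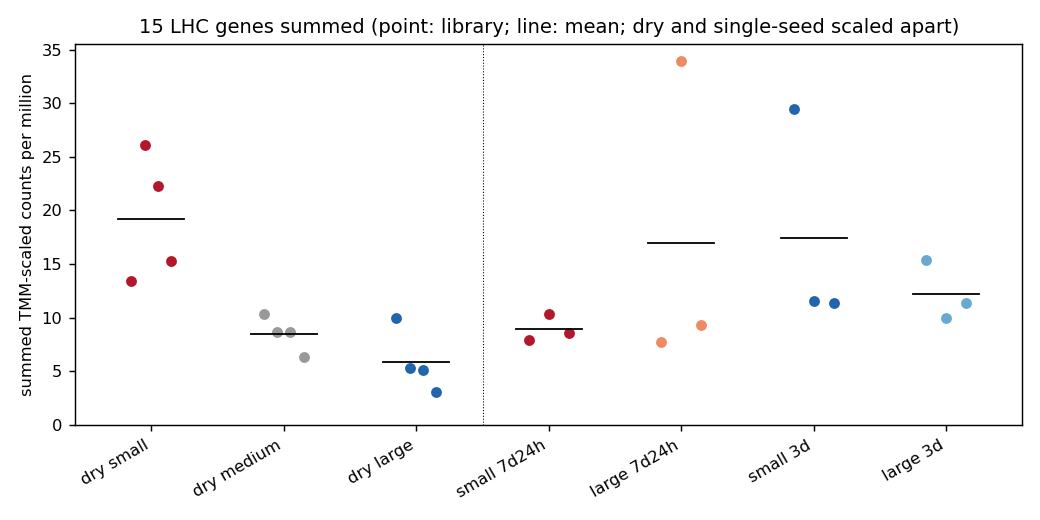
Summed TMM-scaled CPM (y axis) of 15 antenna genes of low level, that is all LHC genes other than LHCA4, LHCA5 and the LHCB4 genes, with 1 point per library and a line at the group mean. The dry and single-seed experiments were scaled separately, and the set was chosen after its values were seen. Small dry seeds (13.4 to 26.1 CPM) lay above large dry seeds (3.04 to 9.94 CPM), and at 7d24h a library of large seeds stood apart at 34.0 CPM.

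The second comparison followed the genes between the stages, during dormancy induction and after recovery from it, within each seed size. From 3d to 7d24h the genes split into opposite directions. Rubisco small subunit, ATP synthase, PSBS and PSBX transcripts were higher at 7d24h, whereas the CP29 transcripts LHCB4.1 and LHCB4.2 and several photosystem subunits present at 3d were lower. Of the 52 genes, 17 averaged 1 count or more per seed in the series. The filter that the study applied against intergenic reads left 11 of these. The other 6 (LHCB4.1, LHCB4.3, PSAH-1, PSBP-1, PSBR and PSBX) are reported from a fit without it. The paper removed such genes because their reads may not give accurate expression levels. Unassigned counts took 10.3% to 11.8% of a 3d library and 7.69% to 9.81% of a 7d24h library, other than small_7d24h library 3 (13.5%). Their part in the values of these genes was not tested.

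In small seeds 7 of the 11 genes were higher at 7d24h (background 32.8% of 6754 genes) and 3 lower (background 33.1%). In large seeds 8 were higher (background 34.4%) and 3 lower (background 35.5%). Without the intergenic filter, 9 of 17 were higher in small seeds (background 34.9% of 12078 genes) and 7 lower (background 30.7%), and in large seeds 9 were higher (background 36.7%) and 7 lower (background 33.5%). The same 16 genes were called in both sizes in that fit, each in the same direction, and 0 in opposite directions. Of the 11 genes, 6 averaged 1 count per seed at 7d24h but not at 3d (LHCA5, RBCS3B, PSBS, PSBW, ATPC1 and ATPD), and so passed the filter only through the stage where they were high, and the other 5 passed at each stage by itself. Of the 17, 8 passed only through 7d24h, with PSBX and LHCB4.3 added. Apart from LHCB4.3, all of these were called higher, so the number called higher describes which genes reached the filter and is no measure of the 52. Libraries of 7d24h were also deeper, which raises the mean count per seed there at the same CPM. Most of all tested genes were called between these stages, so the share called is no feature of the photosynthesis genes either.

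RBCS1A (AT1G67090, chr1:25048158-25049667, - strand), the main small subunit gene of Rubisco in leaves, had the highest level of the 52 genes at 7d24h. It stood at 142, 198 and 122 CPM in small_7d24h libraries, against 44.1, 35.2 and 39.2 CPM in small_3d libraries. In large seeds the levels were 183, 189 and 193 CPM at 7d24h and 20.5, 23.1 and 24.7 CPM at 3d. The stages did not overlap in either size. The log2 fold change was 1.96 ± 0.16 (SE, adjusted p = 3.69e-08) in small seeds and 3.04 ± 0.18 (adjusted p = 4.08e-10) in large seeds. RBCS3B (AT5G38410, chr5:15376988-15378642, - strand) had 11.4, 28.2 and 6.51 CPM in small_7d24h libraries, against 0.51, 0 and 3.41 CPM in small_3d libraries, and a log2 fold change of 3.57 ± 0.79, which was no longer called when every seed was thinned to 20000 counts (2.39, adjusted p = 0.0552). In large seeds it had 26.8, 21.2 and 23.4 CPM at 7d24h, against 0, 0.53 and 1.97 CPM at 3d, with 4.66 ± 0.79. Its neighbour RBCS2B (AT5G38420, chr5:15380907-15382071, - strand), which was too low to be tested, had 8, 57 and 5 counts in small_7d24h libraries against 0, 1 and 0 in small_3d libraries, so that library 2 held most of them. In large seeds it had 53, 46 and 55 counts at 7d24h against 1, 0 and 0 at 3d. Scaled by depth and TMM factors, the RBCS2B ratio was 19.0 in small seeds (95% exact binomial interval 3.30 to 761, counting error only). In large seeds the scaled ratio was 39.0 (6.89 to 1549). RBCS1B (AT5G38430) stayed under 1 CPM in the mean of every group.

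The ATP synthase genes were nearly silent at 3d. ATPC1 (AT4G04640, chr4:2350498-2352025, - strand), the gamma subunit through which light regulates the enzyme, had 18.1, 27.4 and 11.5 CPM in small_7d24h libraries, against 0, 1.21 and 0 CPM in small_3d libraries. With 393 counts at 7d24h and 2 at 3d, the ratio was 53.4 (95% exact binomial interval 14.7 to 442, counting error only). In large seeds 405 and 2 counts gave a ratio of 51.2 (14.1 to 424). ATPD (AT4G09650, chr4:6100714-6101864, + strand), the delta subunit, had 9.26, 13.5 and 5.77 CPM in small_7d24h libraries, against 1.01, 3.03 and 0.57 CPM in small_3d libraries (log2 fold change 2.68 ± 0.51, SE). In large seeds ATPD changed by 2.40 ± 0.48 on the log2 scale.

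Among the tested photosystem II genes, PSBS and PSBX had the largest positive changes. PSBS (AT1G44575, chr1:16870221-16873427, + strand), whose product switches the antenna to the dissipation of excess light, had 10.3, 11.8 and 12.8 CPM in small_7d24h libraries, against 0.51, 0 and 0.57 CPM in small_3d libraries. The ratio from 229 and 2 counts was 31.1 (95% interval 8.51 to 258), and in large seeds 298 and 3 counts gave 25.1 (8.52 to 123). PSBX (AT2G06520, chr2:2587729-2588448, - strand), a small membrane subunit, was removed by the intergenic filter. Without it, PSBX had log2 fold changes of 3.54 ± 0.45 in small seeds, from 30.1, 47.5 and 18.4 CPM at 7d24h against 3.55, 3.03 and 4.55 CPM at 3d, and of 5.03 ± 0.52 in large seeds. PSBW (AT2G30570), another small membrane subunit, rose by 0.94 ± 0.26 in small and 1.05 ± 0.26 in large seeds, and the call in large seeds was lost with thinned seeds (1.07, adjusted p = 0.0649). PSBQ-1, a protein of the oxygen-evolving complex that was too low to be tested, had 95 counts in small_7d24h against 5 in small_3d libraries. Of the 95, 61 were in small_7d24h library 2. Large_7d24h libraries had 117 counts against 1 in large_3d libraries. Scaled by depth and TMM factors, the PSBQ-1 ratio was 5.16 in small (95% interval 2.135 to 16.25) and 29.6 in large seeds (5.21 to 1179).

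LHCA5 (AT1G45474, chr1:17179250-17180806, + strand) was the one antenna gene among the 17 that was called higher. Its product is a scarce antenna protein that in Arabidopsis takes part in joining photosystem I to the NADH dehydrogenase-like complex. It had 17.9, 20.2 and 16.2 CPM in small_7d24h libraries, against 3.55, 4.85 and 5.12 CPM in small_3d libraries (log2 fold change 2.02 ± 0.31, SE), and rose by 1.07 ± 0.25 in large seeds. FD2 (AT1G60950, chr1:22444307-22445291, + strand), the main leaf ferredoxin, was present throughout. It had 64.1, 66.1 and 63.2 CPM in large_7d24h libraries, against 43.6, 41.0 and 48.4 CPM in large_3d libraries. The change was 0.54 ± 0.13 in large seeds (adjusted p = 0.00140). In small seeds FD2 had 0.24 ± 0.13 and was not called (adjusted p = 0.104). This gene depended on the processing. It was called in small seeds without the intergenic filter (0.66, adjusted p = 0.00105) and, with the filter, without small_7d24h library 3 (0.36, adjusted p = 0.0253). The unfiltered call was lost when every seed was thinned to 20000 counts (0.23, adjusted p = 0.455). With thinned seeds its value in large seeds was -0.04 with the intergenic filter (adjusted p = 0.895) and 0.39 without it (adjusted p = 0.150), and neither was called.

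**Figure D3:**
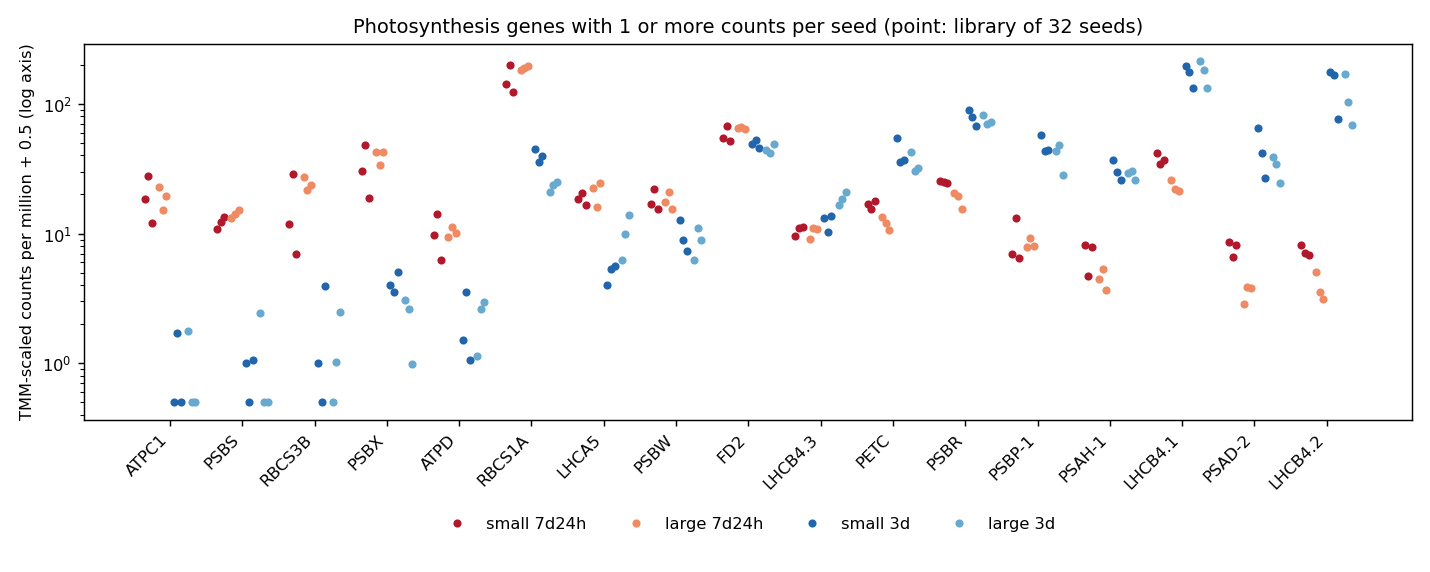
TMM-scaled CPM plus 0.5 on a log axis (y axis) of the 17 photosynthesis genes that averaged 1 count or more per seed, with 1 point per library of 32 seeds, in small_7d24h, large_7d24h, small_3d and large_3d. Genes are ordered by their change between the stages. At the left, ATPC1 and PSBS lay near 0 at 3d, and at the right LHCB4.2 had 6.33 to 7.67 CPM in small_7d24h, against 75.6 to 175 CPM in small_3d libraries.

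Of the 17 genes, LHCB4.2 had the largest fall. Its levels were 7.67, 6.64 and 6.33 CPM in small_7d24h libraries, against 175, 166 and 75.6 CPM in small_3d libraries, and 4.59, 3.05 and 2.61 CPM in large_7d24h, against 170, 103 and 68.1 CPM in large_3d libraries. The log2 fold changes were -4.33 ± 0.34 (SE, adjusted p = 1.75e-08) and -5.06 ± 0.38 (adjusted p = 6.5e-09). Library 3 was lowest at 3d in both sizes and still far above every 7d24h library. LHCB4.1 (AT5G01530, chr5:208866-210548, + strand), the other CP29 isoform of this level, was tested without the intergenic filter. It had 41.5, 34.1 and 36.7 CPM in small_7d24h libraries, against 195, 176 and 133 CPM in small_3d libraries, and its log2 fold changes were -1.75 ± 0.16 in small and -2.46 ± 0.17 in large seeds. LHCB4.3 (AT2G40100), which is regulated apart from the other isoforms in Arabidopsis, was not called in either size (0.19 ± 0.20 in small and -0.40 ± 0.18 in large seeds), though 5 alternatives called it lower in large seeds, with adjusted p down to 0.0323, and library totals alone gave a call of higher in small seeds (0.83, adjusted p = 0.00344).

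PSAD-2 (AT1G03130, chr1:753307-754262, - strand) had 8.10, 6.11 and 7.63 CPM in small_7d24h libraries, against 64.9, 41.2 and 26.2 CPM in small_3d libraries. Its log2 fold change was -2.61 in small and -3.38 in large seeds, and that of PETC was -1.38 in small and -1.57 in large seeds. Without the intergenic filter PSAH-1 (AT3G16140), a photosystem I subunit at the docking site of LHCII, had -1.84 in small and -2.33 in large seeds. PSBP-1 (AT1G06680), a protein of the oxygen-evolving complex, had -2.06 and -1.82, and PSBR had -1.25 and -1.55, again in small and large seeds, and all of them were called. The paralogues PSAD-1 and PSAH-2 were under 3 CPM in the mean of every group, and PSBQ-2 (AT4G05180) had 6 counts in small_7d24h against 59 in small_3d libraries but was not tested.

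**Figure D4:**
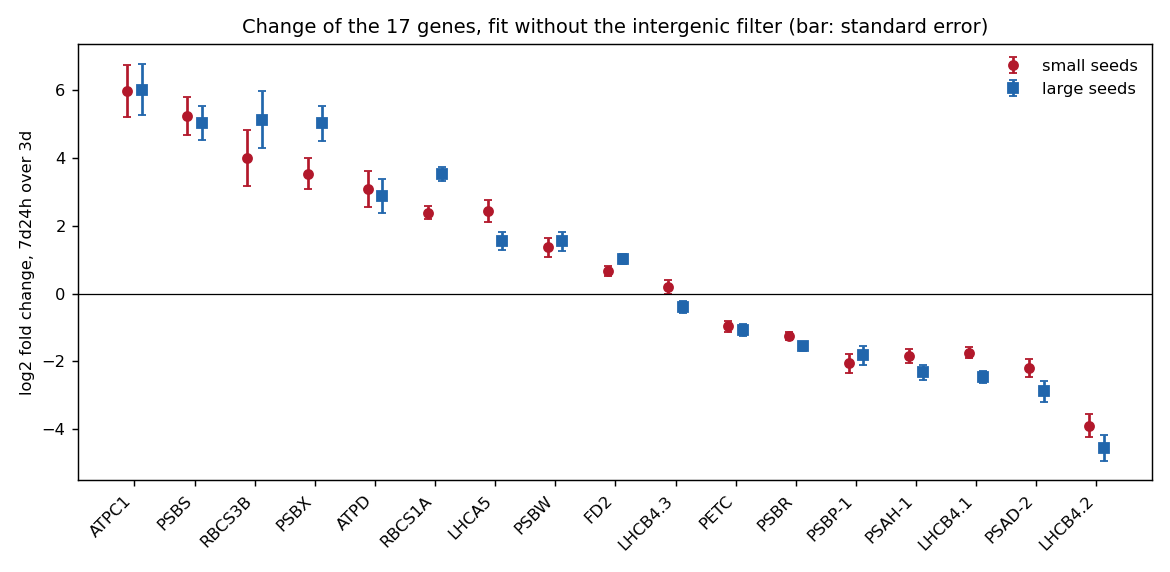
Log2 fold change of 7d24h over 3d (y axis) of the 17 genes in small seeds (circles) and large seeds (squares), from edgeR without the intergenic filter, with bars of 1 standard error. Values ran from 5.99 and 6.03 for ATPC1, which rest on 2 counts at 3d in each size, to -3.90 and -4.56 for LHCB4.2, and 16 of the 17 genes were called in both sizes. With thinned seeds FD2 in both sizes and PETC in small seeds (-0.65, adjusted p = 0.0776) were not called.

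Values between the stages depended on the scaling. With library totals alone, the median of all tested genes shifted by 1.05 in small and 1.11 in large seeds on the log2 scale. On that scale PETC was not called in small seeds (-0.32, adjusted p = 0.0701) and FD2 was called higher (1.30). On that scale the other genes of the filtered fit had the same direction and call in both sizes. The sum over all 52 genes took opposite directions on these scales. Without TMM factors it was 703 ± 180 and 809 ± 37.6 CPM in small_7d24h and large_7d24h, against 492 ± 58.0 and 450 ± 35.0 in small_3d and large_3d libraries. In TMM-scaled CPM it was 498 ± 102 and 537 ± 17.3 at 7d24h, against 733 ± 159 and 651 ± 109 at 3d (SD, n = 3 each). Storage and maturation transcripts took 1.82% to 2.76% and 1.37% to 1.82% of the counts in small_7d24h and large_7d24h libraries, against 17.5% to 18.8% in small_3d and 18.4% to 18.8% in large_3d libraries. Without the intergenic filter 5 of the 5 were called lower in both sizes (background 30.7% in small and 33.5% in large seeds). Even between the edgeR fits the values differed, with RBCS1A at 1.96 and 3.04 in the filtered and 2.39 and 3.53 in the unfiltered fit in small and large seeds.

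Of the endosperm markers, EXPA2 and MAN7, cell wall genes of the germinating endosperm, were called higher and EPR1 and NCED9 lower at 7d24h in both sizes without the intergenic filter. EXPA2 was at 177 to 533 CPM at 7d24h, against 0 to 1.28 CPM at 3d, and NCED6 was at 0.14 to 1.37 CPM, against 3.16 to 18.8 CPM. Summed over the 5, the level was 281 to 529 and 452 to 648 CPM in small_7d24h and large_7d24h libraries, against 239 to 477 and 151 to 224 CPM in small_3d and large_3d libraries. Most of this sum was EXPA2 at 7d24h and EPR1 at 3d. The part of these markers in the photosynthesis values was not tested.

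Dry seeds and single seeds were prepared apart, so their levels were set side by side without a test. The mean of LHCB4.2 was 24.1 CPM for small and 10.5 CPM for large dry seeds, 139 and 114 CPM at 3d, and 6.88 and 3.42 CPM at 7d24h. LHCB4.1 averaged 45.9 and 48.8 CPM in dry seeds, 168 and 175 CPM at 3d, and 37.4 and 22.6 CPM at 7d24h. For both CP29 genes the level at 3d was the highest of the 3 stages. RBCS1A averaged 33.5 and 21.4 CPM in dry seeds, 39.5 and 22.8 CPM at 3d, and 154 and 188 CPM at 7d24h. PSBR had 26.9 and 14.6 CPM in dry seeds, 78.2 and 74.3 CPM at 3d, and 24.5 and 18.1 CPM at 7d24h. PSBX and ATPC1 were under 1 CPM in the mean of every size of dry seeds.

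The third comparison asked whether small and large seeds differed at each stage. No photosynthesis gene was called at 7d24h (0 of 11, background 1.27%), at 3d (0 of 11, background 0.326%) or in the interaction of size and stage (0 of 11, background 0.296%) by edgeR. At an unadjusted p under 0.05 there were 3, 2 and 2 genes, and DESeq2 called 1, 0 and 1. The shares over all genes are not given for these counts, so they are not read as a result about the photosynthesis genes. Without the intergenic filter edgeR called 1 of 17 at 7d24h (background 3.28%), 0 at 3d (background 0.48%) and 0 in the interaction (background 0.546%). The gene called was LHCB4.1, at 41.5, 34.1 and 36.7 CPM in small_7d24h, against 25.3, 21.6 and 20.8 CPM in large_7d24h libraries, with a log2 fold change of 0.66 ± 0.17 (SE, adjusted p = 0.0451). Leaving out any of the libraries large_7d24h 1, 2 or 3, small_7d24h 1 or 3, small_3d 2 or large_3d 2 ended this call, with adjusted p between 0.0605 and 0.224, as did thinning of the seeds (0.99, adjusted p = 0.0651). LHCB4.2 and PSAD-2 showed the same order without being called. PSAD-2 had 8.10, 6.11 and 7.63 CPM in small_7d24h, against 2.38, 3.35 and 3.29 CPM in large_7d24h libraries (log2 fold change 1.25 ± 0.33, adjusted p = 0.0758), and 5 of 22 alternatives called it, with adjusted p down to 0.0183.

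RBCS1A took opposite orders at the stages without being called. It was at 142, 198 and 122 CPM in small_7d24h, against 183, 189 and 193 CPM in large_7d24h libraries (-0.29 ± 0.14, adjusted p = 0.307), and at 44.1, 35.2 and 39.2 CPM in small_3d, against 20.5, 23.1 and 24.7 CPM in large_3d libraries (0.79 ± 0.20, adjusted p = 0.148). The interaction was -1.08 ± 0.25 (adjusted p = 0.0951). Without small_7d24h library 2, the highest of its group, edgeR called RBCS1A at 7d24h (-0.51, adjusted p = 0.0236) and in the interaction (-1.30, adjusted p = 0.00324). RBCS3B was then called lower in small_7d24h than in large_7d24h (-1.37, adjusted p = 0.0197). RBCS1A was also called at 3d (0.79, adjusted p = 0.0267), although that library is no part of the 3d comparison. The fold change at 3d was unchanged, and the fit shares its estimate of the spread over all its libraries. DESeq2 called the interaction of RBCS1A with all libraries (-1.08, adjusted p = 0.0481).

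Single seeds of a group differed widely in these transcripts at 7d24h, as the plot of seed-to-seed spread shows. The values that follow are CPM of each seed by its own total, without TMM factors, for the 378 seeds with at least 20000 counts. RBCS1A had a median of 123 and a 90th percentile of 334 in small_7d24h seeds, with a highest value of 1415, and a median of 134, a 90th percentile of 490 and a highest value of 1066 in large_7d24h seeds. The highest 10 of 95 small_7d24h seeds held 55.5% of the RBCS1A counts and 22.2% of all counts of their group. In large_7d24h the highest 10 of 96 seeds held 51.9% of the RBCS1A counts. PSBX had the same kind of tail, with medians of 10.7 and 13.9 and highest values of 297 and 292 in small_7d24h and large_7d24h seeds. LHCB4.1, which fell between the stages, had no such tail, with 18.8% of its counts in the highest 10 seeds of small_7d24h. The seed with the most RBCS1A was in small_7d24h library 2, where, over all 32 seeds, the highest 2 held 595 of 1487 RBCS1A counts (40.0%). That share was 31.6% to 42.2% in the other 7d24h libraries, also over all seeds.

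**Figure D5:**
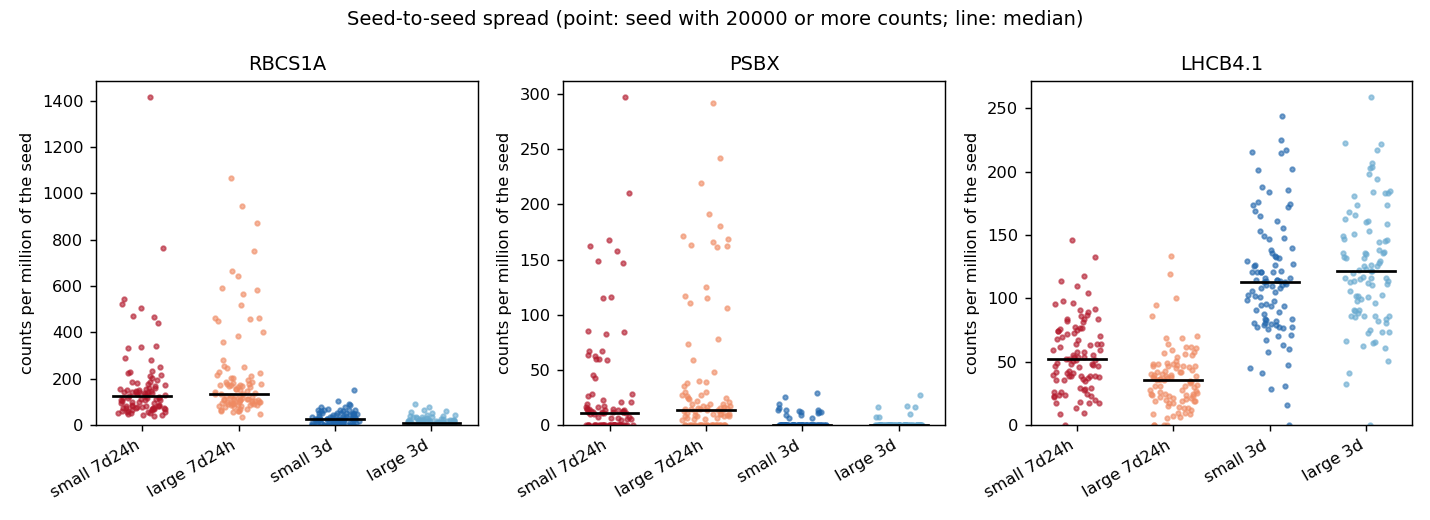
CPM of each seed (y axis) for RBCS1A, PSBX and LHCB4.1, with 1 point per seed of at least 20000 counts and a line at the median, in small_7d24h, large_7d24h, small_3d and large_3d. At 7d24h RBCS1A reached 1415 in a small seed and 1066 in a large seed against medians of 123 and 134, while LHCB4.1 stayed at or below 146 in small_7d24h seeds.

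Within the 6 libraries of 7d24h, the rank correlation across seeds between RBCS1A and PSBX was 0.49 to 0.66. With RBCS3B it was 0.36 to 0.75, with FD2 0.40 to 0.71 and with ATPC1 0.27 to 0.62, above 0 in 6 of 6 libraries for each. With PSBS it was -0.004 to 0.58, above 0 in 5 of 6 libraries, and between PSBX and PSBS it was -0.28 to 0.45. Against LHCB4.1 it was -0.51 to -0.04, below 0 in every 7d24h library, whereas at 3d it was 0.04 to 0.29. The correlation of RBCS1A was 0.30 to 0.66 with EXPA2 and -0.67 to -0.42 with the storage gene CRA1, while at 3d RBCS1A and CRA1 had 0.03 to 0.52. These are descriptions over the seeds of a library with at least 20000 counts, 32 or fewer per library. The values of a seed share its depth, and at 7d24h RBCS1A itself correlated with the depth of the seed by 0.15 to 0.56. Depth and EXPA2 were not separated from the relation between the photosynthesis genes.

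The 15 antenna genes of low level showed another pattern, in which large_7d24h library 2 stood apart. It held 223 of their counts, against 49 and 82 in the other large_7d24h libraries and 46 to 78 in small_7d24h libraries. Of the 223 counts, 183 lay in the 8 seeds numbered 9 to 16 in its table, next to each other, each with 16 to 29 counts and 120 to 382 CPM. The other 24 seeds of the library held 40 counts and had at most 47.2 CPM each. In the other libraries 3 of 346 seeds passed 100 CPM, with at most 7 counts. Of tested genes, the 8 seeds had 63.0 CPM of LHCB4.1, 178 CPM of RBCS1A and 19.0 CPM of PSBX over their summed counts, against 25.9, 317 and 58.4 CPM in the other 24 seeds. The group of 8 was singled out after its values were seen. The cause was not tested, and none of the 15 genes passed the filters for a test.

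The other genes of the chloroplast programme were counted from 3 lists. Over all genes, 32.8% in small and 34.4% in large seeds were called higher between the stages, and 33.1% and 35.5% lower. Without the intergenic filter 34.9% and 36.7% were higher, and 30.7% and 33.5% lower. In dry seeds 8.46% were higher and 6.24% lower in small than in large seeds. The lists are short, and their counts are given as a description. Of 16 genes of chlorophyll synthesis, 3 were tested in dry seeds and 0 called between small and large seeds. Of 5 tested between the stages, 3 were higher in small and 4 in large seeds and 0 lower, and without the intergenic filter, of 8, 5 and 7 were higher and 1 lower in each size. CHLG, chlorophyll synthase, had means of 13.8 CPM in small_7d24h against 0.56 CPM in small_3d and of 15.3 CPM in large_7d24h against 2.92 CPM in large_3d libraries. CAO, which makes chlorophyll b, was the one that fell, with 18.1 CPM in small_7d24h against 64.8 CPM in small_3d and 12.3 CPM in large_7d24h against 98.7 CPM in large_3d libraries. The median log2 fold change of the 5 was 0.55 in small and 1.06 in large seeds.

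Of 17 genes of the Calvin-Benson cycle, 7 were tested in dry seeds, where RPE was higher (0.66) and the transketolase gene TKL1 lower (-0.90) in small than in large seeds. Of 8 tested between the stages, 5 were higher and 2 lower in each size, and without the intergenic filter, of 12, 6 were higher in each and 4 and 5 lower in small and large seeds. The chloroplast aldolase FBA2 stood at 18.2 CPM in small_7d24h against 1.83 CPM in small_3d libraries, and GAPB at 12.02 against 0.54 CPM. RCA, the activase that keeps Rubisco open, moved the other way from RBCS1A, with 7.55 CPM in small_7d24h against 31.5 CPM in small_3d and 5.84 CPM in large_7d24h against 37.5 CPM in large_3d libraries. CP12-1 was called higher in small_7d24h than in large_7d24h without the intergenic filter (0.62).

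Of 16 regulators and targeting factors, 7 were tested in dry seeds, 0 higher and 2 lower in small than in large seeds. These were ELIP1, an early light-induced protein, with a mean of 2.60 CPM in the small and 11.2 CPM in the large libraries (-2.31), and GLK2, an activator of antenna genes, at 8.63 and 16.6 CPM (-1.03). Of 6 tested between the stages, 3 were higher and 1 lower in small seeds and 5 higher and 0 lower in large seeds, and of 12 without the intergenic filter, 7 and 8 were higher and 2 lower in each size. HY5, the activator of light-induced genes, had 51.5 CPM in small_7d24h against 1.68 CPM in small_3d and 34.5 CPM in large_7d24h against 1.56 CPM in large_3d libraries. PIF1, a repressor of germination and greening in darkness, had 91.0 CPM in small_7d24h against 233 CPM in small_3d and 81.0 CPM in large_7d24h against 224 CPM in large_3d libraries.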

How the data were processed

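Whole-number read counts per gene were deposited by the authors, without normalization, for dry seed libraries and for each single seed. They come from barcoded oligo(dT) 3′ RNA-seq, and the submitters' processing notes name STAR 2.7.8a and TAIR10. How reads of repeated sequence were treated, and whether molecular identifiers were collapsed in these counts, is not given in the sources used here. Rows outside genes (9.76% unassigned, 0.256% ambiguous in single seeds) were left out. Sizes and pools of the dry libraries were read from the column names, since the labels give 1 multiplexed sample.

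Counts were tested with edgeR 4.0.16 (glmQLFTest, TMM, two-sided, Benjamini-Hochberg, threshold 0.05) in R 4.3.3, in 1 fit of 12 dry libraries after filterByExpr and 1 fit of 12 single-seed libraries summed over seeds. Single-seed genes needed 1 count or more per seed on average and a correlation of at most 0.3 between their share and the intergenic share in every group. The study words this filter on read numbers, and shares were used here. The 3 single-seed libraries of a group split 1 set of seeds from a common source, so their p-values measure the spread between these libraries and not between plants. The scripts were tested on simulated data. Dry pools pair libraries by source, with a mean residual correlation of 0.0161 within and -0.0053 between pools. Alternatives were DESeq2 1.42.0, other scalings and filters, thinning, blocks and leaving out each library. Named genes were those called (up to 8 per direction), those of highest level, and list genes called. The 52 loci, the lists and the tests were chosen with earlier results of these data known. Motifs and transcript ends were computed with Python 3.11.15 from TAIR10.1. Intervals cover counting error only.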

Additional observations from a re-analysis of the deposited data

Results flagged for a closer look

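In 3 of 30 groups of 4 dry seed libraries checked, 1 library lay far from the others by Dixon's criterion, which chance alone does in about 1 group in 20. LHCB4.2 in small seeds was at 14.4 CPM in pool 3, beside 26.8, 27.1 and 28.1 CPM. PSBW in large seeds was at 18.3 CPM in pool 4, beside 7.13, 7.37 and 7.73 CPM, and without that library PSBW was called higher in small seeds (log2 fold change 1.19, adjusted p = 0.0158, edgeR). RBCS1A in medium seeds was at 58.9 CPM in pool 2, beside 17.3, 17.3 and 22.7 CPM. Without that library edgeR called RBCS1A higher in small than in medium seeds (0.89, adjusted p = 0.0350). It was then also called higher in small than in large seeds (0.71, adjusted p = 0.0205, beside 0.72 with all libraries). Medium libraries are no part of that comparison, but the fit shares its estimate of the spread over all its libraries.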

How the results depend on the processing

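Counts of calls and summed levels were recomputed 266 times under the alternatives, of which 231 stayed within the limits set and 35 moved. In dry seeds, the 3 genes called for small over large seeds became 7 without the filter on low counts and 2 to 4 when libraries were left out, and the 1 gene for small over medium seeds became 0 with library totals alone and 0 to 2 when libraries were left out. Between the stages, the 10 genes of small seeds became 16 without the intergenic filter. For small against large seeds at 7d24h, the 0 genes became 1 with upper-quartile factors, DESeq2 or no intergenic filter and 2 with the replicate block on the library number, and 0 to 2 when libraries were left out. At 3d and in the interaction they became 0 to 1 when libraries were left out, and 1 for the interaction with DESeq2. Without the intergenic filter, the 1 gene at 7d24h became 2 with upper-quartile factors, DESeq2 or library totals alone, 3 with the replicate block, 0 with thinned seeds and 0 to 7 when libraries were left out. There the interaction became 1 with DESeq2 or the replicate block, and leaving out libraries gave 0 to 1 at 3d and in the interaction. Most of these settings have no share over all genes beside them. Their counts of calls are therefore not read as a result about the photosynthesis genes. FD2 in large seeds turned to -0.044 with thinned seeds in the filtered fit. The causes were not tested.

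The library totals and the alternatives without the intergenic filter were chosen after seeing the data. Single-seed libraries of the same number share no stated source, and their residual correlation was -0.131 at the lowest and 0.0586 on average, so the block is a check only. For the dry pools, the block added the call of RBCS1A for small over large seeds and changed no other call. Of the 52 genes, 42 in dry and 35 in single seeds were too shallow for a test.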
